A study of Mus musculus with 2 samples.

Results

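The macrophage nuclei of the postnatal mouse cochlea were taken from 2 single-nucleus RNA libraries by a gate on marker genes. A nucleus passed if it had at least 500 genes, at most 5% mitochondrial UMIs (unique molecular identifiers, the counted RNA molecules) and at most 10000 UMIs. It also needed a UMI of at least 3 of 8 macrophage genes (Ptprc, Csf1r, Mrc1, Dock2, Cx3cr1, C1qa, C1qb and F13a1) and of fewer than 2 of 4 hair cell genes (Myo3a, Dytn, Loxhd1 and Strip2). The gate took 322 of the 18897 nuclei within the quality limits, out of 21834 barcodes in all: 142 in the library labelled Serpine2 cOE and 180 in the control library.

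The Serpine2 cOE library came from 20 pooled cochleae of mice with the genotype Lgr5EGFP-CreER/+, Serpine2loxp/loxp, and the control library from 19 pooled cochleae of Serpine2loxp/loxp mice without the Cre allele. All mice received tamoxifen on postnatal day 1, and their cochlear basement membranes were taken on day 7. The tamoxifen-dependent Cre is driven from Lgr5, a gene of supporting cell progenitors, and the labels name hair and supporting cells as the cell types and do not describe what recombination does to the Serpine2 allele. Each group is 1 pooled library, so no difference between the groups has a replicate check, and every interval below is a 95% interval that covers counting error only.

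Macrophages are the main resident immune cells of the inner ear. They depend on the receptor Csf1r for survival, take up dead cells and debris, tag targets with complement, present antigen and release cytokines, and in the cochlea they lie among the nerve fibres, along the blood vessels and below the sensory epithelium. The transcription factor PU.1, encoded by Spi1, is a main regulator of their genes and binds a short GAGGAA-type core in many of them.

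The promoters of the gate genes were read for that core because the gate genes, by construction, occur together in these nuclei. Of the 8 gate genes, 6 (Ptprc, Mrc1, Dock2, Cx3cr1, C1qb and F13a1) matched the RefSeq promoter table (build GRCm38.p6, 250 bases before to 50 after each start). The motif was searched as GAGGAA on both strands, and as the longer GAGGAAG, which contains it. Ptprc and F13a1 have 2 entries each. In the 100 bases before the start, 4 of the 8 promoters of these genes held GAGGAA, against 9.82% of all 32851 promoters. Those 4 windows are shown 5′ to 3′ on the gene's strand, with each match in capitals (TTCCTC is GAGGAA read on the other strand).
Mrc1, chr2:14229314-14229413, plus strand: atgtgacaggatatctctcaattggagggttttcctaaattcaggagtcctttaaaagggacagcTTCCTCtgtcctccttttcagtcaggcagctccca
Dock2, chr11:34783906-34784005, minus strand: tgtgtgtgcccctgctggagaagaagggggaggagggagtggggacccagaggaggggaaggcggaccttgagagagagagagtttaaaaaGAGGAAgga
C1qb, chr4:136886201-136886300, minus strand: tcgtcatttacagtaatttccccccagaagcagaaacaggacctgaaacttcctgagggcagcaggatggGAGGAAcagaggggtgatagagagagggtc
F13a1, chr13:37050245-37050344, minus strand: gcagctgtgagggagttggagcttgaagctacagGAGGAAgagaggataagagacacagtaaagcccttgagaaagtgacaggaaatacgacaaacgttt

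The match began 35 bases before the start in Mrc1, 9 in Dock2, 30 in C1qb and 66 in F13a1, and 3 of the 4 windows (all but C1qb) also held GAGGAAG. Over the whole 300 bases, GAGGAA was in 6 of the 8 promoters of gate genes. It was in 17 of the 24 promoters found for a list of macrophage genes outside the gate, in 43.9% of 424 promoters of genes at least 4-fold higher in the gated nuclei than in other nuclei of both libraries, in 27.2% of 8652 promoters of all measured genes and in 28.3% of all promoters. A match is a description of these letters and not a binding site.

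The label was checked against genes that the gate did not use. Of 28 macrophage genes outside the gate, 27 were measured (at least 20 UMIs in the gated nuclei of both libraries together), and 26 of these were at least 4-fold higher than in the other nuclei of both libraries, where 5.41% of 8519 measured genes were (12.3% of 4242 for the nuclei of clusters 0 and 1 described below). The list median was a log2 ratio of 5.68 in cOE and 5.30 in control, against 0.07 and 0.05 over all measured genes. Because the gate picks nuclei by genes of the same cells, these values describe the members and are not a test.

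Among the examples, Inpp5d, a lipid phosphatase that limits immune receptor signals, had 239 UMIs in the cOE members and 290 in the control members (561 and 558 CPM, the gene's UMIs scaled to a total of 1e6). Its log2 ratio to other nuclei was 7.75 and 7.09. Maf, a transcription factor of resident macrophages, had 445 and 478 UMIs and ratios of 4.87 and 4.58. Mertk, a receptor for dying cells, was the measured list gene that missed the 4-fold mark, with ratios of 1.94 and 1.76, since other nuclei held it at 112 and 91.6 CPM.

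Among all genes outside the gate, the 20 that stood highest above the other nuclei in both libraries (each in at least 10% of members) were led by Tlr7, a sensor of single-stranded RNA, with log2 ratios of 8.44 in cOE and 8.20 in control. Next to it stood F630028O10Rik (8.22 and 8.12), the interferon-induced Ifi207 (10.21 and 7.81) and Il21r, the interleukin 21 receptor (8.55 and 7.76). The same group held Aoah, an enzyme that inactivates endotoxin (7.55 and 7.69), Hk3, the hexokinase of myeloid cells (7.79 and 7.58), Cd33 (7.77 and 7.08), Vav1 (8.34 and 7.02) and the membrane genes Ms4a14, Ms4a4a and Ms4a6d. Its other members were Ifi204, Pld4, Gm42962, Asb2, Cd86, Stab1, Adap2, Inpp5d and Cd84, with ratios from 7.03 to 8.22.

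**Figure D1:**
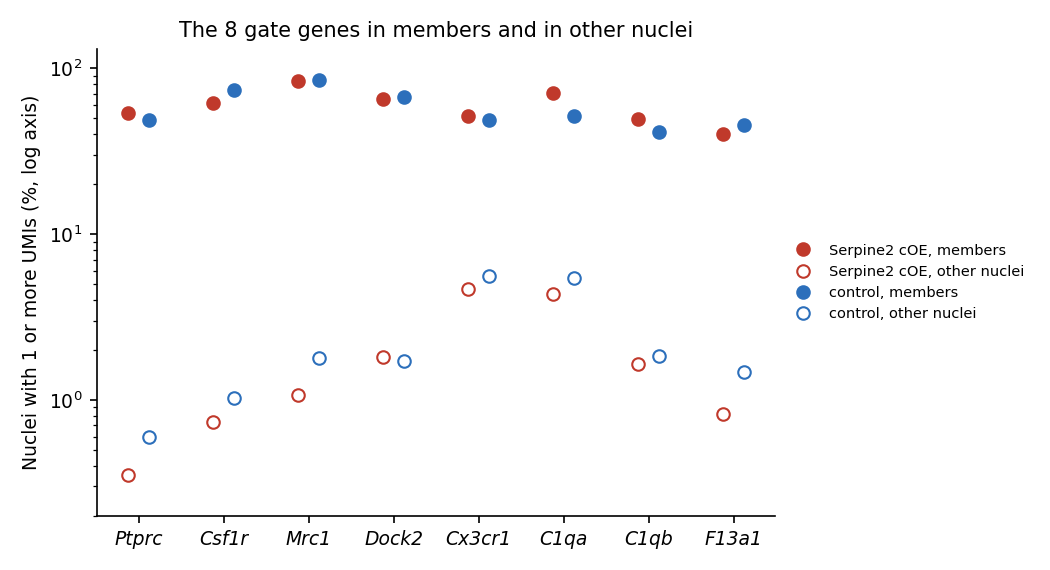
Share of nuclei with at least 1 UMI of each gate gene (percent, log axis), for members (filled) and other nuclei within the quality limits (open), by library. Members lie between 40.1% and 85.0%, and other nuclei between 0.354% and 5.58%, highest for Cx3cr1 and C1qa.

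The members were chosen by detection of the 8 gate genes in these same nuclei, so the values of those genes are given as a description. Mrc1, the mannose receptor, had 678 UMIs in 118 of 142 cOE members and 929 UMIs in 153 of 180 control members. Csf1r had 157 and 219 UMIs, Ptprc (the leukocyte antigen CD45) 124 and 168, and Dock2, a regulator of leukocyte migration, 173 and 231. Cx3cr1, the fractalkine receptor, had 133 and 152 UMIs. The complement genes C1qa and C1qb had 321 and 118 UMIs in cOE and 245 and 120 in control. F13a1, the A chain of coagulation factor XIII, had 148 and 276.

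Some gate genes also gave UMIs in other nuclei. These can hold up to 2 gate genes, apart from 5 cOE and 9 control nuclei with at least 3 that the hair cell genes excluded. Cx3cr1 was found in 4.62% of other cOE nuclei and 5.58% of other control nuclei, and C1qa in 4.35% and 5.41%, with median depths of 2443 and 2246 UMIs there and 1988.5 and 1919.5 in members. Csf1r, at 0.738% and 1.02%, and Ptprc, at 0.354% and 0.594%, were found in fewer. Just inside the gate, nuclei with exactly 3 gate genes (34 in cOE and 43 in control) carried 18.5 and 23.8 gate gene UMIs per 10000. Just outside it, nuclei with exactly 2 (101 and 134) carried 6.73 and 8.78, and those with 1 carried 3.39 and 3.75.

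Of 60 genes on 6 lists of other blood cells, 29 were at 0 in the 322 members. Only 8519 of all 33696 genes were measured in the members, so low counts were common at this depth. The share of all genes at 0 is not given here, so these zeros do not show that other blood cells were absent. No UMI was found of the monocyte genes Ly6c2, Ace, Treml4 and Spn, of the dendritic cell genes Xcr1, Cd209a, Itgax and Ccr7, of the T and NK cell genes Cd3g, Trac, Cd8a and Klrb1c, or of the B cell genes Ms4a1, Cd79a, Pax5 and Igll1. Of 8 mast cell genes, 7 were at 0, as were the granulocyte genes Mpo, Elane, Ltf and Retnlg. The other listed genes gave sums of 74 and 98 UMIs for monocytes, 71 and 130 for T and NK cells and 110 and 70 for B cells. On the log2 scale of cOE over control, the T and NK cell sum was at -0.59 (-1.02 to -0.16) and the B cell sum, which includes Ighm, at 0.94 (0.49 to 1.39). Among the nuclei with most T and NK cell UMIs, those of cluster 2 (described below) held Gata3, with 7, 6 and 5 UMIs in cOE. In control they held 11 and 11, while 12 UMIs of the control sum were Skap1 in 1 nucleus. Ighm was also higher in cOE in other nuclei, at 0.50. The sums are therefore not counts of T, NK or B cells. A count of 0 over a library's members still allows 7.04 CPM in cOE and 5.77 CPM in control, the level of 3 UMIs.

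A few members stood out by such genes. In cOE, 1 nucleus carried 8 of 10 osteoclast genes, with 9 UMIs of the collagen protease gene Ctsk and 5 of the proton pump gene Atp6v0d2, and it held 26 of the library's 59 osteoclast list UMIs. In control, 1 nucleus carried 12 UMIs of Skap1 with 1 of Cd3e, genes of T cell signalling. It also carried 8 proliferation genes, and had 3 gate genes, Ptprc, Dock2 and Cx3cr1.

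The members fell into 5 clusters when they were clustered alone and without the gate genes. Clusters 0 (83 nuclei) and 1 (125) were macrophage-like: 15 and 16 of the 28 macrophage genes outside the gate were raised there, and, microglia apart, no list of another cell type had more than 1 gene raised in cluster 0 or more than 2 in cluster 1. Clusters 2 (21 nuclei), 3 (76) and 4 (17) carried the gate genes together with genes of another cell type. Cluster 2 was led by Ano1, Cpa6, Kcnh8 and Otogl, cluster 3 held otic mesenchyme genes such as Tbx18 and Ebf2, and cluster 4 was led by Tmem72, Atp13a5, Dach2, Dkk2 and Otx2.

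Clusters 2 to 4 are given no cell type name, and values for the 208 nuclei of clusters 0 and 1 are given beside many of the results between libraries. Nuclei of clusters 2 to 4 held a median of 4859.5 UMIs, against 1580.5 in clusters 0 and 1. Gate gene UMIs were similar per nucleus, with medians of 9.5 and 11, so their density was 22.8 per 10000 UMIs in clusters 2 to 4 and 80.2 in clusters 0 and 1. The doublet score of Scrublet placed 78 of the 114 nuclei of clusters 2 to 4 (68.4%) and 0 of the 208 of clusters 0 and 1 among the top scores of their library. The part of droplets with 2 nuclei in these clusters was not tested further.

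**Figure D2:**
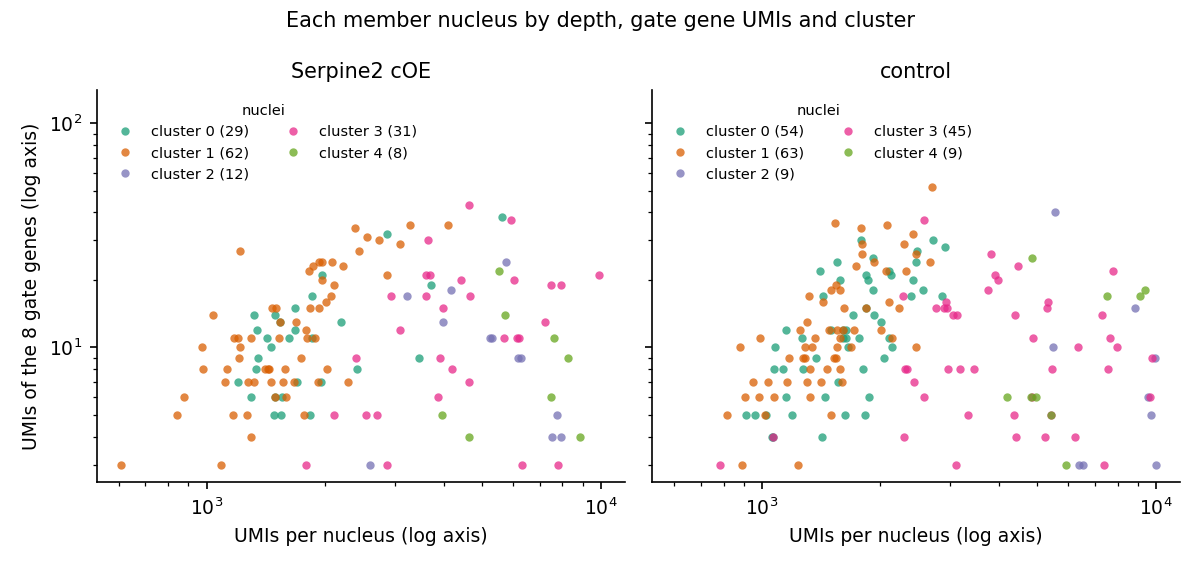
UMIs of the 8 gate genes against all UMIs for each member nucleus (both axes logarithmic), by library and cluster, with the number of nuclei in brackets. Clusters 2, 3 and 4 extend to higher depth (median 4859.5 UMIs) than clusters 0 and 1 (1580.5) at similar gate gene UMIs.

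The marker lists showed the same division in both libraries. The summed level of the macrophage genes outside the gate was 9287 and 7622 CPM in cluster 0 (cOE and control), 9917 and 8761 in cluster 1, and between 1487 and 3445 in clusters 2 to 4. Supporting cell genes summed to 5613 and 4571 CPM in cluster 2, above the 3047 and 2509 of the other nuclei, but to between 701 and 1112 in clusters 0 and 1. Mesenchyme genes stood at 2514 and 2474 CPM in cluster 3, and genes of the stria, roof and pigment cells at 1343 and 1835 in cluster 4.

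**Figure D3:**
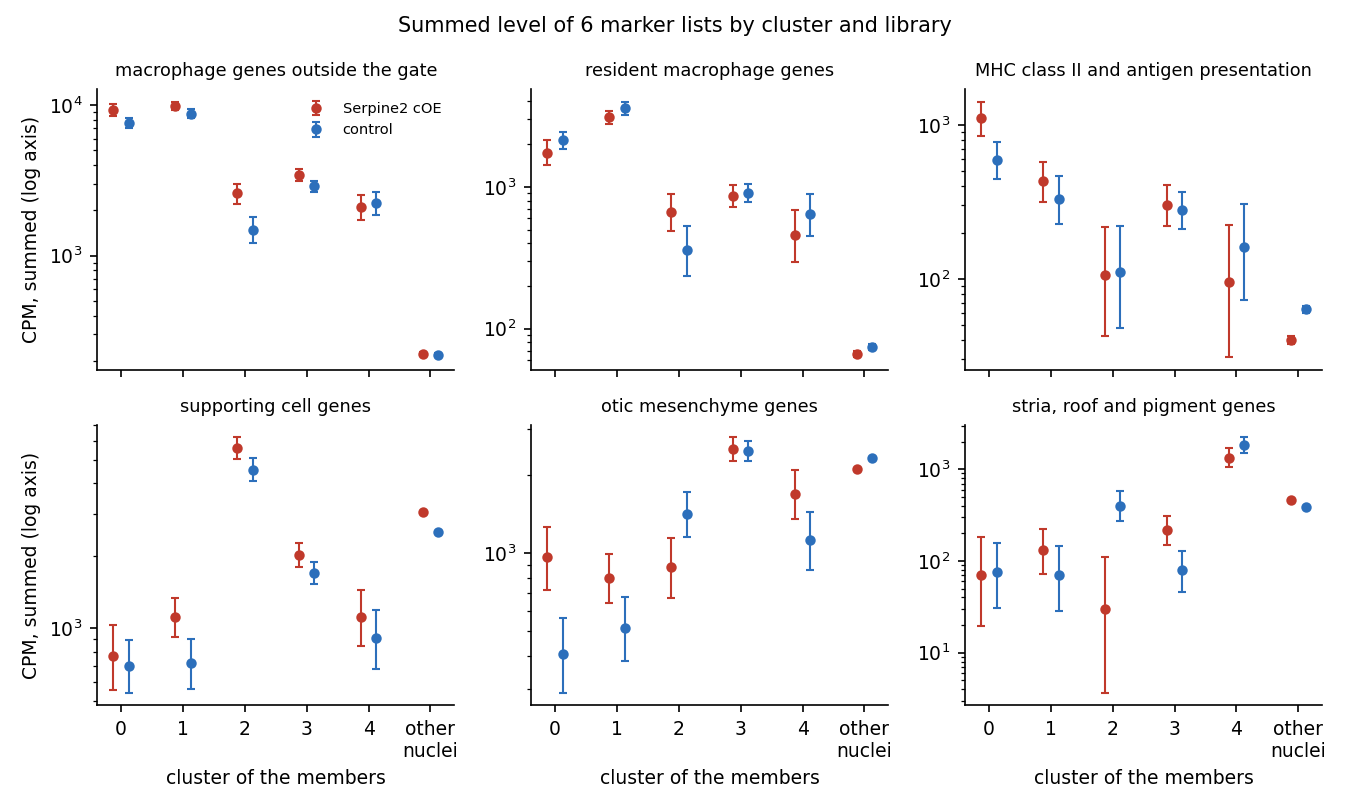
Summed CPM (log axes) of 6 marker lists in the 5 clusters of members and in other nuclei, by library, with 95% Poisson intervals. Macrophage lists are highest in clusters 0 and 1, and supporting cell, mesenchyme and roof lists peak in clusters 2, 3 and 4.

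Growth factor receptors and transcription factors came first among the functional groups. The counts by group below cover all members, of which clusters 2 to 4 held 591847 UMIs and clusters 0 and 1 held 354345. Over all 8519 measured genes, 5.41% were at least 4-fold above other nuclei in both libraries (12.3% of 4242 in clusters 0 and 1). Of 7 measured genes of the Csf1 and related receptor axis, 4 were at least 4-fold above other nuclei in both libraries. Csf1r and Cx3cr1 among them are gate genes, and without these 2 it was 2 of 5. Of 14 measured transcription factors 8 were (10 of 13 in clusters 0 and 1). Besides Maf these included Mef2c (374 and 349 UMIs, log2 ratios of 4.45 and 4.14). Zeb2 (525 and 958 UMIs) and Mef2a (339 and 381) were also abundant in other nuclei, with ratios of 1.66 and 1.90 and of 1.39 and 1.35. The receptor genes Tgfbr1 and Tgfbr2 had 116 and 96 UMIs and 110 and 145 UMIs.

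The uptake machinery was broadly present. Of 14 measured genes of dead cell clearance 6 passed the 4-fold mark, among them Abca1, a cholesterol exporter (397 and 470 UMIs), and Stab1, a scavenger receptor (241 and 404). Elmo1, an engulfment adaptor (282 and 337 UMIs), did not, with log2 ratios of 0.99 and 1.26. All 8 measured genes of tissue-resident macrophages passed it, among them Clec10a, a lectin (58 and 66 UMIs), and Pf4, a chemokine (73 and 75). Selenop, a selenium carrier, had 164 and 149 UMIs. Lysosomal genes passed in 6 of 17, with Ctsc (log2 ratios of 6.39 and 6.02) and the protease gene Lgmn (4.17 and 4.12) as examples, while Psap was near the level of other nuclei (1.10 and 1.01).

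Of 10 measured iron genes 4 passed the 4-fold mark (4 of 6 in clusters 0 and 1). The iron exporter gene Slc40a1 had 47 and 59 UMIs, with log2 ratios to other nuclei of 6.47 and 6.23. The ferritin genes Fth1 (581 and 427 UMIs) and Ftl1 (326 and 256) were close to the other nuclei, at 0.83 and 0.42 and at 1.38 and 0.89. Of 7 measured lipid genes none passed the 4-fold mark (1 of 6 in clusters 0 and 1), near the 5.41% of all measured genes. Apoe, the lipid carrier with 1303 and 1344 UMIs, had ratios of 1.88 and 1.29.

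For complement, 8 of 9 measured genes passed, of which C1qa and C1qb are gate genes. Without these 2 it was 6 of 7. All 8 measured genes of the Fc receptor group passed. The C1q chains are encoded side by side on chromosome 4 (GRCm39, minus strand: C1qb at 136606009 to 136613511, C1qc at 136616466 to 136620376 and C1qa at 136623223 to 136626161, all protein-coding). C1qc, which the gate did not use, had 160 and 113 UMIs with log2 ratios of 5.62 and 4.60.

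Antigen presentation, cytokines and innate sensors were sparser. Of 4 measured genes for antigen presentation 3 passed, with 25 and 25 UMIs of H2-Aa and 49 and 35 of Cd74, and Cd86 had 55 and 58. Of 8 measured cytokine genes 6 passed, including the chemokines Ccl12 (46 and 37 UMIs) and Ccl2 (15 and 26). Il10, Tlr9, Ptgs2, Ccl22 and Retnla were at 0 UMIs. Of 11 measured growth factor genes 0 were 4-fold above other nuclei, near the 5.41% of all measured genes. Igf1 had 117 and 152 UMIs, at ratios of 0.23 and 0.67.

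Serpine2 encodes a secreted inhibitor of thrombin and plasminogen activators, and its level in members did not differ from that in other nuclei beyond counting error. It had 31 UMIs in the cOE members (72.7 CPM) and 47 in the control members (90.4 CPM), a log2 ratio of -0.31 (interval -1.02 to 0.37). In other nuclei it stood at 86.2 and 93.8 CPM. Other nuclei with a Lgr5 UMI held 69.6 CPM in the cOE library (61.8 to 78.0), while those of the control library held 58.2 (49.99 to 67.4). Of the 6 measured genes of the plasminogen and coagulation list, F13a1, a gate gene, alone passed the 4-fold mark, and Serpinb2 had no UMI.

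Microglia genes, which mark the macrophages of the brain, were present in part. The 3 measured ones (P2ry12, Gpr34 and Fcrls) all passed the mark, and Sall1, a defining microglia gene, had 8 and 6 UMIs, at ratios of -0.57 and -0.88. Fcrls had 68 and 57 UMIs with ratios of 6.75 and 6.57.

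At least 2-fold higher in cluster 1 in both libraries were 99 of 4242 genes (2.33%), and 105 (2.48%) were higher in cluster 0. Of 7 measured tissue-resident genes, 2 were higher in cluster 1 (Pf4 and Cd209f) and 0 in cluster 0, and of 3 class II and antigen presentation genes, 2 were higher in cluster 0 (H2-Aa and Cd74). The genes named here were chosen after their values were seen. Cluster 1 had the chemokine gene Pf4, with 54 and 48 UMIs against 1 and 2 in cluster 0 (log2 ratios of 4.84 and 4.49), and Slc40a1 with 33 and 40 against 5 and 5. Further genes of cluster 1 were Cd209f, Fcrls, the scavenger receptor gene Cd36, Slco2b1, Ccl2, Zfp36 and Zbtb46, and Lyve1, a marker of macrophages along vessels, had 9 and 11 UMIs there and none in cluster 0.

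Cluster 0 had the class II genes H2-Aa (10 and 11 UMIs against 4 and 1 in cluster 1) and Cd74 (28 and 17 against 6 and 2, log2 ratios of cluster 1 over 0 of -3.14 and -3.19). Top2a, a gene of dividing cells, Lrp1 and Tbx18 were also higher in cluster 0. Since the same genes formed the clusters, these ratios describe them and are not a test.

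Dividing nuclei lay mostly in cluster 0. At least 3 of 18 proliferation genes were found in 7 of 142 cOE members (4.93%, interval 2.005 to 9.89) and 6 of 180 control members (3.33%, 1.23 to 7.11), of which 5 and 5 were in cluster 0. In other nuclei the same count gave 0.423% and 0.701%. After thinning every nucleus to 1000 UMIs, leaving out 5 cOE and 10 control members that were shallower, 4 of 137 (2.92%) and 3 of 170 (1.76%) remained, against 0.0514% and 0.252% of other nuclei.

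The share of macrophage nuclei was lower in the cOE library. Members made up 1.38% of its nuclei within the quality limits (interval 1.16 to 1.62), whereas the control library had 2.09% (1.80 to 2.42). The control share was thus 1.52 times the cOE share (1.21 to 1.91). For clusters 0 and 1 alone the shares were 0.883% and 1.36%, at a ratio of 1.54 (1.16 to 2.05). The ratio was 2.23 for cluster 0 (29 and 54 nuclei, interval 1.40 to 3.64) and 1.22 for cluster 1 (62 and 63 nuclei, 0.845 to 1.76). The difference between these 2 ratios was not tested. At a finer resolution of 1, cluster 1 did not stay whole. A cluster of 60 of its nuclei, with Lyve1 and Pf4 raised, had 22 cOE and 38 control nuclei. Another, with P2ry12 raised, took 48 of its nuclei and had 30 and 19. One that took 13, with Trem2, Ccl8, C1qa, C1qc and Tyrobp raised, had 11 cOE and 5 control nuclei. The differences between these parts were not tested. Fewer macrophages and more nuclei of other kinds cannot be told apart in a share, and dissection or pooling cannot be told apart from genotype with 1 library a group.

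**Figure D4:**
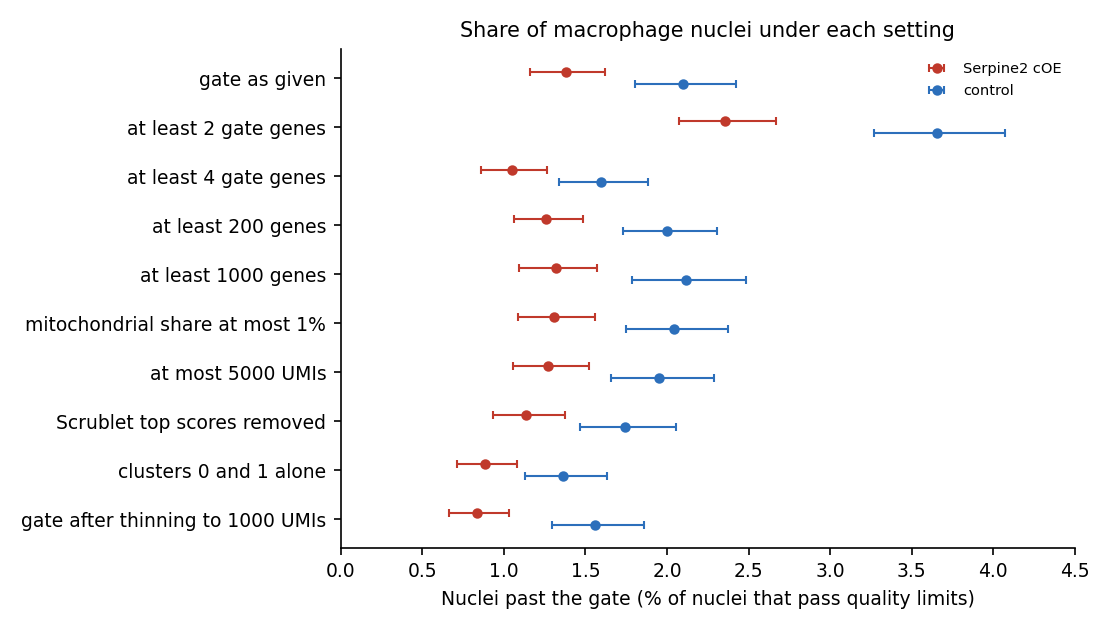
Share of nuclei past the gate (percent of nuclei within the quality limits) with 95% Clopper-Pearson intervals, by library, for the gate as given and 9 other settings. The control share is above the cOE share in each row, with 1.36% against 0.883% in clusters 0 and 1 alone and 3.65% against 2.36% with at least 2 gate genes.

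Most macrophage genes differed by less than 2-fold between the libraries, while some summed lists were higher in cOE. The nuclei also differed in quality values. In clusters 0 and 1 the median mitochondrial share of UMIs was 0.716% in cOE and 0.438% in control. The median share of ribosomal protein genes there was 6.93% and 6.19%. The part of these values in the differences between libraries was not tested. In the members, 279 of 8519 measured genes (3.28%) were at least 2-fold higher in cOE and 287 (3.37%) at least 2-fold lower, or 6.64% either way. In clusters 0 and 1 these were 190 of 4242 (4.48%) and 196 (4.62%), or 9.1% either way. Of the 27 measured macrophage genes outside the gate, 1 was 2-fold higher (Tyrobp) and 1 lower (Itgam), and the list median was 0.13 on the log2 scale of cOE over control, beside 0.01 over all measured genes. The 2 genes of 27 are near the 6.64% of all measured genes. For clusters 0 and 1 the counts were 3 of 26 higher (Cd53, Tyrobp and Cd300a) and 1 lower (Itgam). In all members, the tissue-resident (8 genes), Fc receptor (8), lysosomal (17) and iron (10) lists had no gene past 2-fold, and neither had the 8 gate genes. The lysosomal regulator gene Tfeb was lower in clusters 0 and 1 (8 and 21 UMIs, -1.15, -2.53 to 0.08). Summed in all members, the macrophage genes outside the gate were at 0.27 (0.18 to 0.35) and the microglia list at 0.46 (0.19 to 0.72). The tissue-resident list was at -0.08 (-0.23 to 0.07). The antigen presentation list was at 0.31 (-0.01 to 0.64). In clusters 0 and 1 it was at 0.54 (0.12 to 0.96), and Cd74 was at least 2-fold higher there.

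Ccl8, a chemokine gene, differed most in the cOE direction among the genes eligible to be named. It had 62 UMIs in 20 of 142 cOE members and 7 UMIs in 5 of 180 control members, with at most 10 and 2 in any nucleus. That gave 145 and 13.5 CPM, a log2 ratio of 3.43 (2.31 to 4.81). In clusters 0 and 1 it had 34 and 6 UMIs and a ratio of 2.75 (1.48 to 4.29), and the ratio in other nuclei was 0.39. Cluster 0 held 12 and 4 of these UMIs and cluster 1 held 22 and 2, so both carried more in cOE. The 22 UMIs lay in 6.45% of the cOE nuclei of cluster 1.

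At least 2-fold higher in cOE were 1 of 14 measured genes of dead cell clearance (Trem2) and 1 of 7 lipid genes (Cd9). The 9 complement genes had 1 higher (C3ar1) and 1 lower (Itgam). The 14 transcription factors had 1 higher (Cebpb) and 1 lower (Klf4), and the 8 cytokine genes 1 higher (Ccl8) and 1 lower (Tnf). Over all measured genes, 3.28% were at least 2-fold higher, and 6.64% were past 2-fold either way. Tyrobp, the adaptor of Trem2 and other receptors, had 98 UMIs in 55 cOE members and 48 in 39 control members, a log2 ratio of 1.32 (0.80 to 1.85) and of 1.52 (0.84 to 2.24) in clusters 0 and 1. Trem2, a receptor for lipids and dying cells, had 26 and 14 UMIs (1.18, 0.19 to 2.23), and in clusters 0 and 1 the interval of its ratio of 1.16 reached -0.09. C3ar1, the receptor for complement fragment C3a, had 38 and 23 UMIs (1.01, 0.23 to 1.82). Cebpb, a transcription factor of myeloid activation, had 51 and 30 (1.05, 0.37 to 1.75) and Cd9, a tetraspanin, 94 and 56 (1.03, 0.54 to 1.54). In clusters 0 and 1 the ratios were 1.34 for Cebpb, 1.52 for C3ar1 and 1.39 for Cd9. At resolution 1, Tyrobp, Trem2, Ccl8, C1qa and C1qc were raised in a cluster of 16 nuclei, 11 of cOE and 5 of control. Its median share of ribosomal protein genes was 9.96%. The part of this cluster in the ratios was not tested.

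The C1q genes stood under 2-fold. The log2 ratios were 0.68 (0.43 to 0.92) for C1qa, 0.26 (-0.12 to 0.64) for C1qb and 0.79 (0.43 to 1.15) for C1qc, and in other nuclei they were -0.44, -0.33 and -0.22. Since C1qa and C1qb chose the members, the values of these 2 are a description.

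Of the other named genes higher in cOE, Ighm, the heavy chain of immunoglobulin M, had 56 and 26 UMIs (1.39, 0.70 to 2.12) and Arf1, a vesicle transport gene, 81 and 39 (1.34, 0.77 to 1.93). Both held in clusters 0 and 1, at 1.51 (0.60 to 2.48) and 1.58 (0.69 to 2.55). In other nuclei both were also higher in cOE, at 0.50 for Ighm and 0.20 for Arf1. Ighm stood at 54.6 and 38.7 CPM in other nuclei, and its log2 ratio of members to them was 1.27 and 0.37. Mdh2, Ccl25, Suclg1 and Ran, with ratios from 1.35 to 1.59, had intervals that reached below 0 in clusters 0 and 1, where they had at most 16 UMIs in a library. Plch1, Cldn14 and Kcnh8 had at most 5 UMIs in a library there, and most of their UMIs lay in clusters 2 to 4.

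Among genes lower in cOE, 1700071M16Rik had 5 UMIs in 5 cOE members and 53 in 39 control members, a log2 ratio of -3.12 (-4.80 to -1.81). In cluster 0 it had no UMI in cOE and 31 in control, while cluster 1 held 3 and 2 UMIs, and the ratio in other nuclei was -0.21. Gm30489, a long non-coding RNA, had 13 and 60 UMIs (-1.92, -2.91 to -1.04) and 9 and 46 in clusters 0 and 1 (-2.11). It lies inside F13a1 on the opposite strand (GRCm39 chromosome 13, 37147213 to 37157303 within 37051152 to 37234277), and 2 of its annotated exons overlap exons of F13a1. The counting is not stated to use strand in the sources used here, so reads of the pair may not be separable.

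F13a1 itself was lower in cOE, at -0.61 (-0.91 to -0.32) in members and -0.91 (-1.29 to -0.53) in clusters 0 and 1, as a gate gene a description. In cluster 0 it had 12 UMIs in cOE (213 CPM) and 97 in control (1046 CPM), and in cluster 1 it had 74 (698 CPM) and 94 (947 CPM). C1qa showed the reverse in cluster 0, with 76 UMIs (1352 CPM) and 45 (485 CPM), and was level in cluster 1, with 117 (1103 CPM) and 110 (1108 CPM).

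Itgam, the CD11b integrin, was lower in cOE, with 13 UMIs in 11 members and 38 in 34 (-1.26, -2.29 to -0.32). The interferon-induced genes Parp14 (31 and 76 UMIs, -1.01, -1.66 to -0.39) and Oasl2 (7 and 22, -1.37, -2.84 to -0.09) were the 2 of 10 measured interferon genes past 2-fold, and in clusters 0 and 1 it was 0 of 8. The summed interferon list was at -0.29 in members and -0.35 in other nuclei. In clusters 0 and 1 Parp14 was at -0.57 (-1.42 to 0.24). The immediate early gene Fosb had 4 and 28 UMIs (-2.52, -4.49 to -1.01), of which cluster 1 held 1 and 18, and in other nuclei it was also lower, at -1.28. Pald1 and Psmb7 held in clusters 0 and 1, at -2.63 and -1.84. Tcea3, Gm48091, Col26a1, 1700120O09Rik, Grid1 and Opcml, at -1.90 to -1.53, had at most 8 UMIs in a library there.

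**Figure D5:**
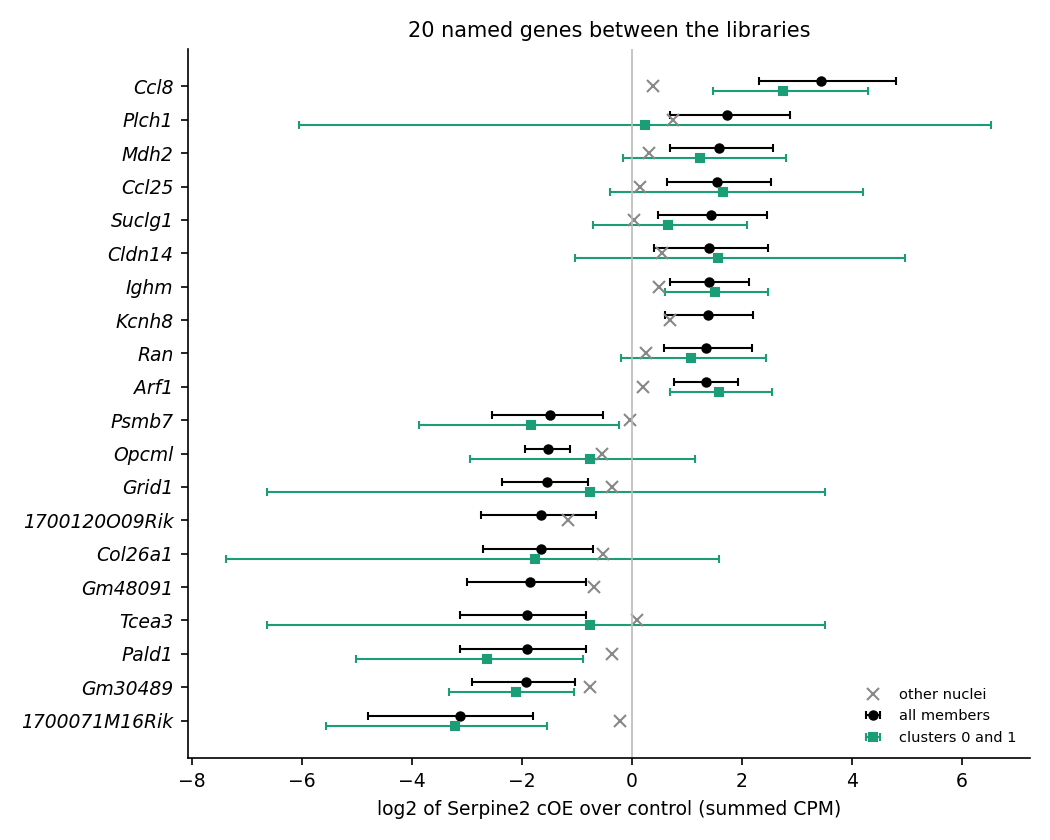
Log2 ratio of cOE over control for the 10 named genes on each side, in all members (black) and clusters 0 and 1 (green) with 95% counting intervals, and in other nuclei (grey crosses). Genes with 0 UMIs in a library in clusters 0 and 1 have no green point. Ccl8 at 3.43 and 1700071M16Rik at -3.12 lie farthest from 0.

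Genes of other cells also differed between the members of the 2 libraries. Osteoblast and cartilage genes summed to 1267 CPM in cOE members and 696 in control members, and 1 cOE nucleus of cluster 3 held 77 of the 123 UMIs of the bone matrix gene Ibsp there (4 in control). Spp1, a bone and macrophage matrix protein gene, had 53 and 13 UMIs, of which 32 of the 53 lay in 1 nucleus, and 12 and 7 in clusters 0 and 1 (1.02, -0.44 to 2.60). In clusters 0 and 1, mesenchyme genes summed to 856 and 463 CPM and erythroid genes to 345 and 161 CPM. Dcn, a matrix proteoglycan gene, had 69 and 39 UMIs, Vegfa, a vessel growth factor gene, 15 and 6, and the neurotrophin gene Ntf3 2 and 25. The part of these in the other differences was not tested.

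Sex-linked genes differed too. Xist, expressed from the inactive X chromosome, stood at 1661 CPM in cOE members and 2589 in control members, and the Y-linked genes Ddx3y at 93.8 and 19.2, Uty at 188 and 65.4, Kdm5d at 32.8 and 15.4 and Eif2s3y at 101 and 51.9. The share of each sex in the pools cannot be told apart from genotype. The libraries had 40429121 and 31158971 UMIs in all, of which members held 426318 and 519874. They shared 27 barcodes, and 0 of these were members.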

How the data were processed

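Nuclei of 1 pooled cochlear library per group were profiled with 10x Genomics 3′ chemistry. The deposited values are raw UMI counts for 33696 genes in each barcode. Per the file headers, Cell Ranger 8.0.1 wrote them. The design text names build GRCm39, while the submitters' processing notes name mm10 and STAR. Gene positions printed are GENCODE M39 (GRCm39) and promoters are RefSeq (GRCm38.p6), and the builds were not mixed.

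The macrophage gate and all gene lists were chosen with earlier results of these data known. UMIs were summed per library over members and given as CPM of that sum. Shares have Clopper-Pearson intervals, CPM exact Poisson intervals and ratios exact conditional intervals, all at 95% and for counting error only. With 1 library a group no p-value was computed, and called means past a fold of 2 between libraries, or 4 over other nuclei, among genes with at least 20 UMIs in members. The ratio step was tested on simulated counts of 8519 genes, where a 2-fold change came back as a median log2 of 0.99. These counts were drawn from summed means without spread between nuclei, so they check the calculation and not the intervals on real nuclei. Members were clustered with scanpy 1.11.5 (Leiden, leidenalg 0.10.2, 2000 variable genes, 20 components, 15 neighbours, resolution 0.5), leaving out gate, sex-linked, mitochondrial, ribosomal, haemoglobin and Serpine2 genes. Doublets were kept. Scrublet scores were ranked within each library and the top 0.8% per 1000 barcodes removed as an alternative.

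Named genes were the gate genes, the 4 list genes with most UMIs, list genes past 2-fold with an interval off 0, list genes at 0, the 20 highest over other nuclei, and the 10 highest and 10 lowest between libraries. The last had at least 40 UMIs, at least 8 nuclei with a UMI in the higher library and no nucleus with over 25% of the UMIs there. Other genes named were chosen after their values were seen. Alternatives changed the gate, the quality limits, doublet removal, depth, weighting, normalisation (TMM, edgeR 4.0.16), the UMI minimum and the cluster resolution. Results for some list genes are not reported here.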

Additional observations from a re-analysis of the deposited data

How the results depend on the processing

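The control share stayed above the cOE share in every setting, with a ratio between 1.52 and 1.87. The shares in cOE and control were 1.05% and 1.59% with at least 4 gate genes, 2.36% and 3.65% with at least 2, 1.14% and 1.74% after removal of the top Scrublet scores, and 0.832% and 1.56% with the gate applied after thinning to 1000 UMIs. They were 0.883% and 1.36% for clusters 0 and 1 alone, a setting chosen after seeing the data. The genes at least 2-fold higher and lower in cOE numbered 434 and 431 with each nucleus weighted equally, 161 and 171 after thinning, 62 and 59 with at least 50 UMIs, and 645 and 645 with at least 10 UMIs. The cause was not tested, except that the UMI minimum and thinning change how many genes are measured. At resolution 1 the members formed 8 clusters in place of 5. Of the results recomputed (the shares, the counts and the 20 genes named between libraries), none reversed where it had a value. A named gene under the UMI minimum in a setting had no value there. For clusters 0 and 1 alone these were Plch1, Ccl25, Cldn14, Kcnh8, Tcea3, Gm48091, Col26a1, 1700120O09Rik, Grid1 and Opcml. Thinning also left some named genes without a value. The log2 ratio of Ccl8 ranged from 2.63 to 3.86. With at least 2 gate genes, Arf1 went from 1.34 to 0.66, Psmb7 from -1.49 to -0.48, Tcea3 from -1.90 to -0.70 and Opcml from -1.53 to -0.99. Grid1 went from -1.55 to -0.77 with a lower limit on UMIs per nucleus, -2.41 without top Scrublet scores and -0.50 thinned. Opcml was at -2.09 with at most 1% mitochondrial UMIs and -0.92 thinned, and Kcnh8 went from 1.39 to 2.32 without top Scrublet scores. Values of list genes and of single clusters were not recomputed under the alternatives, apart from the nucleus counts of some clusters at resolution 1. No paired analysis was possible because each group is 1 library, so the groups share fewer than 2 replicate numbers. Leaving out a replicate was likewise not run.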

Other observations

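Barcodes above the limit of 10000 UMIs were outside the gate. There were 512 in cOE and 361 in control, and 67 and 83 of them carried at least 3 gate genes. Of those, 37 and 44 also carried at least 2 of the 4 hair cell genes.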
